A study of Mus musculus with 29 samples.

Results

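Dexamethasone, a synthetic glucocorticoid, was compared with saline in the lungs of wild-type mice after 4 h, and the comparison was made across all genes. Its members are the 8 arrays whose titles name wild-type lung at 4 h, 4 from mice given dexamethasone at 2.5 mg/kg and 4 from mice given saline, of 29 arrays in all. The mice were C57BL/6 and 6 to 8 weeks old, and total RNA of lung was labelled with one dye and hybridised to Agilent whole mouse genome arrays. The wider series also holds the 8 h time point, with 3 dexamethasone and 3 saline arrays of wild-type lung. It further holds lungs of mice without Klf15, a Krüppel-like transcription factor, with 4 dexamethasone and 3 saline arrays at 4 h. The title of the series names the question, how the glucocorticoid receptor and Klf15 together shape the time course of gene expression. The labels call the samples biologic quadruplicates. The sources used here give neither the route of the dose nor the sex of the mice nor any pooling.

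Every value below is the log2 of an array's background-subtracted signal minus the 75th percentile of that array, so a negative value marks a signal below that percentile. A change is the dexamethasone mean minus the saline mean, and 1 unit is a 2-fold difference. Of the 43379 spots on an array other than controls, 75.5 to 83.8% were well above background on the 8 arrays. Arrays of the same group correlated with r = 0.9715 to 0.9913 and arrays of different groups with r = 0.9654 to 0.986 across probes. The median of the 25% of genes with the highest mean signal lay 7.5 above that of the 25% with the lowest on dexamethasone array 49, against 8.09 to 8.39 on the other dexamethasone arrays and 7.85 to 8.64 on the saline arrays. Array 49 and saline array 34 recur below where single arrays departed from their group. The lung marker Sftpc, surfactant protein C, was well above background on all 8 arrays. Precision is limited by having 4 arrays in each group.

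Glucocorticoids enter the cell and bind the glucocorticoid receptor, which is held in the cytoplasm by heat shock proteins and their cochaperones. The bound receptor moves to the nucleus, where it binds palindromic response elements and raises transcription of nearby genes, and it restrains NF-kB and AP-1, the factors that drive inflammatory genes. In the lung these drugs are known for calming inflammation in asthma and for speeding the maturation of surfactant before birth, and in blood they are known for lowering the number of circulating lymphocytes.

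After 4 h, 5645 of the 15350 genes tested differed between dexamethasone and saline lungs (adjusted p under 0.05 by limma with Benjamini-Hochberg adjustment). They were 36.8% of the genes tested, 2328 higher (15.2%) and 3317 lower (21.6%). At least 2-fold changes were fewer, with 458 genes higher (2.98%) and 608 lower (3.96%). The 4 dexamethasone arrays all lay above the 4 saline arrays for 2157 genes (14.1%) and all below them for 3019 (19.7%). The median change of all genes was -0.02. With each array scaled to its median in place of the 75th percentile, that median was -0.11 and 30.8% of the called genes were higher, against 41.2% with the 75th percentile, so small changes depend on the scaling. Slides 3 and 7 each held 1 array of either group, and genes called from the remaining slides had the same sign within the slide in 96.7% of cases on slide 3 and 97.4% on slide 7.

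**Figure D1:**
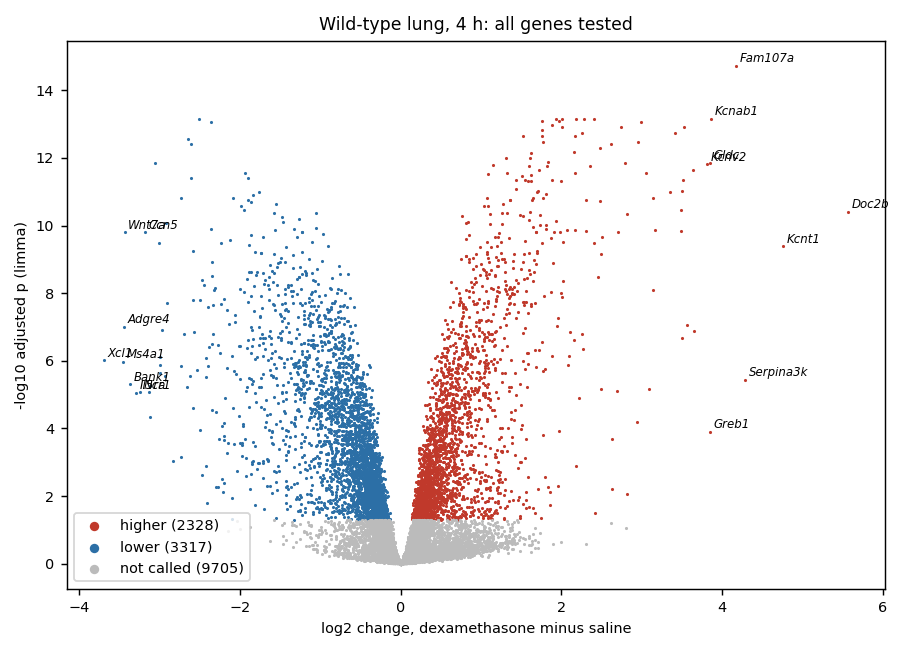
Each point is 1 of the 15350 genes tested, with the log2 change (dexamethasone minus saline, 4 h, wild type) on the horizontal axis and the -log10 of limma's adjusted p on the vertical axis. Coloured points passed an adjusted p under 0.05, 2328 higher and 3317 lower, and the genes with the largest changes in either direction are named.

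The receptor's own gene fell, and Fkbp5 and Hsd11b2, which restrain hormone action, rose. Nr3c1, which encodes the glucocorticoid receptor, stood at 1.97, 2.05, 1.79 and 1.8 on the dexamethasone arrays, against 2.7, 2.63, 2.59 and 2.87 on the saline arrays. The groups did not overlap, and the change was -0.80 (SE 0.0846, limma's adjusted p = 8.07e-08), with its other 3 probes at -0.47, -0.64 and -0.64. Where a gene had several probes kept, the brightest was used, and the p of another probe is adjusted over all probes. Fkbp5, a cochaperone that lowers the receptor's affinity for hormone, stood at 2.3, 2.55, 2.48 and 2.27 on the dexamethasone arrays, against -2.21, -1.26, 0.26 and 0.47 on the saline arrays. The saline arrays spread widely by this probe while the dexamethasone arrays lay close together, and the change was 3.08 (adjusted p = 6.62e-06). Its other 2 probes gave 4.97 and 4.51. Hsd11b2, the enzyme that inactivates corticosterone, was higher by 1.09 (adjusted p = 0.00594) at signals near the lower end of the range, with 3 of 4 saline arrays well above background. Fkbp4, a cochaperone known to favour receptor transport to the nucleus, fell by 0.56, while its second probe was at -0.25 and did not pass (limma's adjusted p = 0.0866). The coactivator Ncoa1 rose by 0.57, while the chaperone Hsp90aa1 was at -0.08 without passing the test (adjusted p = 0.557). Of 20 genes of the receptor machinery, 5 were higher (25%) and 6 lower (30%), against 15.2% and 21.6% of all genes, with a median of 0.06. Without dexamethasone array 51 the count of lower genes was 3.

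The largest rises spanned secretion, ion channels, hormone activation and fuel use. Fam107a, an actin-binding protein known as a stress-response gene, stood at 3.15, 3.27, 3.2 and 3.25 on the dexamethasone arrays, against -0.89, -1.32, -0.74 and -0.86 on the saline arrays. Its arrays were tightly grouped on both sides, and the rise of 4.17 (SE 0.14, adjusted p = 1.86e-15) corresponds to 18-fold. Doc2b, a calcium sensor of vesicle release, stood at -2.93, -2.48, -2.72 and -3.02 on the dexamethasone arrays, against -8.95, -7.19, -9.0 and -8.27 on the saline arrays. It was not well above background on any saline array, so its rise is a bound of at least 23.3-fold (adjusted p = 3.85e-11), where the saline mean takes on each array the higher of the gene's own signal and the lowest signal counted as well above background. Serpina3k, a serine protease inhibitor, was at least 15.7-fold higher on the same basis, and its paralogs may share part of its signal. The potassium channel gene Kcnt1 stood at -2.25, -2.58, -2.77 and -2.33 on the dexamethasone arrays, against -6.27, -8.38, -7.0 and -7.31 on the saline arrays, with all dexamethasone arrays far above the saline arrays, of which 3 were well above background. Its 2 other probes disagreed, at 2.20 (adjusted p = 1.8e-06) and -0.52 (adjusted p = 0.576).

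Kcnab1, a regulatory subunit of potassium channels, rose by 3.86 by its brighter probe, while its dim second probe was at -0.34 (adjusted p = 0.828). Dio2, the deiodinase that converts thyroxine into the active thyroid hormone, stood at -0.19, -0.18, -0.27 and -0.23 on the dexamethasone arrays, against -3.69, -3.69, -3.64 and -3.88 on the saline arrays. Both groups were tight, and the rise was 3.51, or 11.4-fold (adjusted p = 9.74e-12). Pmaip1, the proapoptotic BH3-only protein NOXA, stood at 3.56, 3.83, 3.38 and 3.45 on the dexamethasone arrays, against -0.20, 0.01, -0.03 and 0.36 on the saline arrays, a rise of 3.52 (adjusted p = 1.21e-13). Tat, the tyrosine aminotransferase long used as a marker of glucocorticoid action in liver, stood at 0.06, 0.84, 0.10 and 0.61 on the dexamethasone arrays, against -3.36, -2.79, -3.09 and -3.08 on the saline arrays, with no overlap and a rise of 3.48 (adjusted p = 1.44e-10). Gldc, the glycine decarboxylase of the mitochondrial glycine cleavage system, rose by 3.84. The oestrogen-regulated gene Greb1 stood at -3.1, -2.91, -2.94 and -2.79 on the dexamethasone arrays, against -7.46, -7.57, -7.66 and -4.43 on the saline arrays. It was well above background on 1 of the 4 saline arrays, so the fitted rise of 3.85 rests on values near the background and its size is uncertain. The peptide hormone gene Cck, the channel gene Kcnv2, the orphan receptor Gpr20 and the lipid phosphatase Plpp4 were below the level counted as well above background on every saline array, and their bounds were at least 4.12-fold, 3.83-fold, 6.66-fold and 7.41-fold. The accessory genes of chloride channels, Clca3a1 and Clca3a2, rose by 3.64 and 3.41, and as near-identical neighbours they may share signal.

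**Figure D2:**
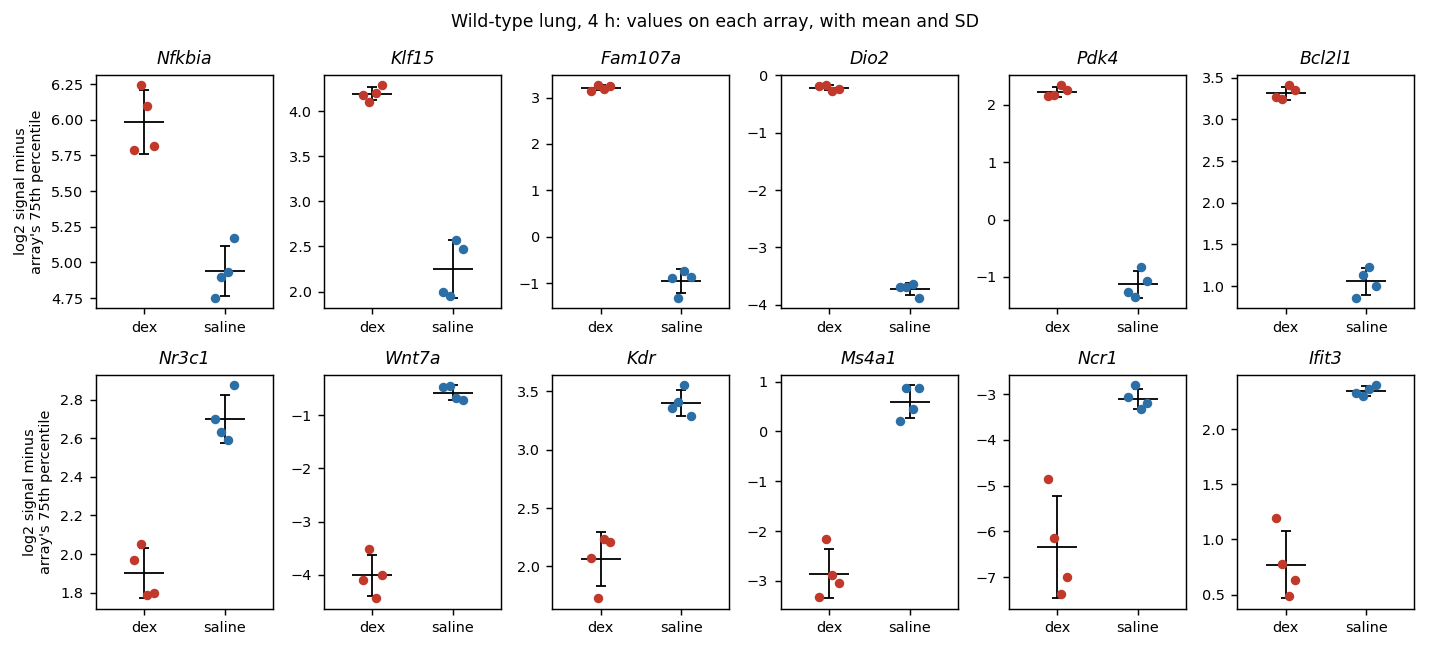
Values of 12 genes on each array (log2 signal minus the 75th percentile), with the 4 dexamethasone arrays on the left and the 4 saline arrays on the right of each panel; points are arrays and bars are group means with SD. Dexamethasone arrays lay above all saline arrays in the upper 6 panels and below them in the lower 6.

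Of 38 classical glucocorticoid-induced genes tested, 31 were higher and 0 lower by limma's adjusted p (32 and 1 at an unadjusted p under 0.05), with a median change of 1.25, against 15.2% higher and a median of -0.02 over all genes. By array, the median of these genes relative to the saline mean was 1.27, 1.32, 1.27 and 1.18 on the dexamethasone arrays and -0.09, -0.02, 0.01 and 0.09 on the saline arrays. Tsc22d3, which encodes the anti-inflammatory leucine zipper GILZ, stood at 5.04, 5.04, 5.15 and 5.19 on the dexamethasone arrays, against 3.11, 3.54, 3.7 and 3.85 on the saline arrays, a rise of 1.56. Klf15 itself stood at 4.18, 4.11, 4.2 and 4.29 on the dexamethasone arrays, against 2.0, 1.95, 2.57 and 2.48 on the saline arrays, without overlap, and rose by 1.95 (SE 0.208, adjusted p = 9.44e-08), with 1.95 by its second probe. Klf9, another Krüppel-like factor known as a receptor target, rose by 0.99. Cdkn1a, the cell cycle inhibitor p21, rose by 3.05, the kinase gene Map3k6 by 2.17 and the glutamine synthetase gene Glul by 1.93. Sgk1, a kinase that promotes sodium uptake, rose by 1.15, and the metallothionein genes Mt1 and Mt2, whose products bind zinc, by 1.53 and 2.7. Mt1 and Mt2 are similar enough that their probes may share signal. Anxa1, annexin A1, an anti-inflammatory mediator often listed as induced, was at -0.09 and did not pass (adjusted p = 0.518), although by the deposited table it was -0.21 with an adjusted p of 0.0455.

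A palindromic receptor binding site was searched in RefSeq promoter windows of GRCm38.p6, from 250 bases before to 50 after the start of a gene. The motif was GNACA and TGTNC with any 3 bases between them, which reads alike on both strands, so that matches on the strands coincide. It was present in 156 of all 32851 windows (0.475%) and in 58 of the 12246 tested genes that had a window (0.474%). Among genes that were higher it was present in 20 of 1873 (1.07%), and among those at least 2-fold higher in 12 of 359 (3.34%). Among genes that were lower it was present in 2 of 2615 (0.0765%), and among genes not called in 36 of 7758 (0.464%). These shares are descriptions without a test, and a match is not a binding site shown by these data. The 5 largest rises with the motif are shown so that both arms of the motif, in capitals, can be read in their surroundings. Fam107a and Map3k6 were described above. Atp6v0a4, a subunit of the proton pump, rose by 2.40, Tinagl1, a matrix protein, by 1.74, and the glycine N-methyltransferase gene Gnmt by 1.65. The motif of Atp6v0a4 and of Gnmt lay inside the transcript, at bases 36 to 48 and 20 to 32, so only its close flanks are printed. Sgk1 and Mt1 were added after their values were seen, Sgk1 because it was the 1 tested gene with the stricter palindrome, AGAACA and TGTTCT with any 3 bases between them, which 3 of all windows hold.
Fam107a: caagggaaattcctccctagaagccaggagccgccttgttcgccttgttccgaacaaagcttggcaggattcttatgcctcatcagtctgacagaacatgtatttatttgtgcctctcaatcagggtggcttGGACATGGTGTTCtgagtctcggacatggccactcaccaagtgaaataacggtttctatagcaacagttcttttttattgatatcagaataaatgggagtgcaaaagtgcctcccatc
Map3k6: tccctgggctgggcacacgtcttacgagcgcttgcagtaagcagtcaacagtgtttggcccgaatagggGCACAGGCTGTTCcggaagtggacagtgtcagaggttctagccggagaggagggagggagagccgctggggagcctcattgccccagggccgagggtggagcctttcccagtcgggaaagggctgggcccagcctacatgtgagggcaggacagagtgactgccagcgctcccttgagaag
Tinagl1: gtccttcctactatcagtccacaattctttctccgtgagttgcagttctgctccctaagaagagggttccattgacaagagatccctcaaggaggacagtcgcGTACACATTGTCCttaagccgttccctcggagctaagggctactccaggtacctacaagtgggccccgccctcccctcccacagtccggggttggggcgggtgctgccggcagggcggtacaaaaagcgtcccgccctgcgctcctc
Sgk1: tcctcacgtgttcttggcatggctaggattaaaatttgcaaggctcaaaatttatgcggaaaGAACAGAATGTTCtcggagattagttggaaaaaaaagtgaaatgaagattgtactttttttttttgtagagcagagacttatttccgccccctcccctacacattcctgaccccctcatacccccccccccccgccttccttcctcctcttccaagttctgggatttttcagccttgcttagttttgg
Mt1: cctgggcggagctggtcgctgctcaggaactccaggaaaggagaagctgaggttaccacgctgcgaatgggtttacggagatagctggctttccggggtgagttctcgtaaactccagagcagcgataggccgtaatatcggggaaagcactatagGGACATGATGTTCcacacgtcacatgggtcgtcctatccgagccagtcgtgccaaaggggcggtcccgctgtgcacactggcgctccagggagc
Atp6v0a4: taggagcaGGACAGAGTGTTCct
Gnmt: aggatggtGGACAGCGTGTACcgtacccg
The Fam107a stretch is chr14:8309780-8310029 (minus strand), with the motif 118 to 106 bases before the start. The Map3k6 stretch is chr4:133240568-133240817 (plus strand), the motif 181 to 169 bases before the start, and the Tinagl1 stretch is chr4:130174803-130175052 (minus strand), the motif 147 to 135 bases before it. The Sgk1 stretch is chr10:21993640-21993889 (plus strand), the motif 188 to 176 bases before the start, and the Mt1 stretch is chr8:94178839-94179088 (plus strand), the motif 94 to 82 bases before it. The short stretches are chr6:38124537-38124559 for Atp6v0a4 and chr17:46729126-46729154 for Gnmt, both on the minus strand. Of the 20 largest rises, 14 had a window, and Fam107a was the 1 with the motif. The windows of the other 13 hold no such letters, which says nothing of sites farther away. Of the 31 classical genes that were higher, 26 had a window and 5 held the motif, namely Fam107a, Map3k6, Mt1, Sgk1 and the transporter gene Slc10a6.

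The brakes on inflammatory signalling moved in both directions, with 10 of 32 higher (31.2%), 14 lower (43.8%) and a median of -0.18. Over all genes 15.2% were higher and 21.6% lower. Nfkbia, the inhibitor that holds NF-kB in the cytoplasm, stood at 5.79, 6.24, 6.1 and 5.81 on the dexamethasone arrays, against 4.75, 4.9, 4.93 and 5.17 on the saline arrays, a rise of 1.05 (adjusted p = 2e-07). Errfi1, which restrains the EGF receptor, rose by 1.31. Socs1, a feedback inhibitor induced by interferon and cytokine signalling, fell by 1.47, and the phosphatase gene Dusp10 by 0.99. Without saline array 34 the count of lower genes was 9.

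Genes that spare glucose and burn or store fat were more often higher than the background. Of 26 genes of fatty acid use and lipid storage, 14 were higher (53.8%) and 2 lower (7.69%), against 15.2% and 21.6% of all genes, with a median of 0.46. Pdk4, the kinase that blocks entry of pyruvate into the citric acid cycle, stood at 2.16, 2.17, 2.34 and 2.25 on the dexamethasone arrays, against -1.26, -1.36, -0.82 and -1.06 on the saline arrays. It rose 10.2-fold (adjusted p = 1.01e-11). Angptl4, an inhibitor of lipoprotein lipase, stood at 5.53, 5.54, 5.74 and 5.74 on the dexamethasone arrays, against 3.71, 3.66, 4.08 and 3.86 on the saline arrays. The lipase gene Lpl itself stood at 4.14, 4.78, 4.35 and 4.45 on the dexamethasone arrays, against 2.82, 2.78, 2.52 and 2.83 on the saline arrays. Inhibitor and enzyme both rose, by 1.81 and 1.69. The triglyceride lipase gene Pnpla2 rose by 1.59, and its inhibitor G0s2 fell by 1.86 (adjusted p = 2.43e-09), with -0.67, -0.34, -0.65 and -0.79 on the dexamethasone arrays, against 1.34, 1.21, 1.18 and 1.26 on the saline arrays. The lipin gene Lpin1 and the lipid droplet coat gene Plin4 rose by 1.98 and 2.27. The fatty acid transporter gene Cd36 was at 0.22 and did not pass (adjusted p = 0.0967). Of 11 adipocyte genes, 3 were higher (27.3%, against 15.2% of all genes), 0 lower and 8 not called by limma's adjusted p. At an unadjusted p under 0.05 the counts were 3 and 0, and the list's median was 0.42. By array, the median of the adipocyte genes relative to the saline mean was 0.605, 0.47, 0.51 and 0.10 on the dexamethasone arrays and 0.21, -0.26, -0.17 and 0.18 on the saline arrays. Dexamethasone array 52, at 0.10, lay within the saline range. The summed level of these genes (log2) was 4.14 to 4.415 on dexamethasone and 3.31 to 4.06 on saline arrays. The 3 higher were Fabp4 (1.21), which both lists hold, the lipid droplet gene Cidec (0.52) and the lipogenic regulator gene Thrsp (0.58). Thrsp did not pass without saline array 33, 34 or 35 or dexamethasone array 49 or 50, and neither Thrsp nor Cidec passed by median scaling. The adipocyte hormone gene Adipoq, adiponectin, stood at -2.05, -1.92, -2.13 and -3.45 on the dexamethasone arrays, against -2.49, -3.88, -3.04 and -2.25 on the saline arrays. Its groups overlapped, and neither it nor the droplet coat gene Plin1, at -0.27, passed (adjusted p = 0.561 and 0.727). The part of adipocytes in the lipid list was not tested.

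Lipid synthesis moved the other way, with 12 of 24 genes lower (50%), 4 higher (16.7%) and a median of -0.31. Over all genes 21.6% were lower and 15.2% higher. The cholesterol synthesis genes Hmgcs1, Dhcr7 and Cyp51 fell by 0.89, 1.13 and 0.72. Hmgcs1 stood at 2.44, 2.48, 2.4 and 2.47 on the dexamethasone arrays, against 3.45, 3.25, 3.25 and 3.4 on the saline arrays, without overlap. The fatty acid synthase gene Fasn was at 0.09 (adjusted p = 0.455). Of 38 genes of amino acid breakdown, 15 were higher (39.5%) and 6 lower (15.8%), with a median of 0.17. Besides Tat and Gldc, the tryptophan dioxygenase gene Tdo2 stood at -2.31, -2.04, -2.54 and -2.28 on the dexamethasone arrays, against -3.38, -4.39, -4.47 and -4.12 on the saline arrays and rose by 1.8, and the lysine-degrading Aass and the cystathionine lyase gene Cth rose by 0.98 and 1.21. The amino acid transporter genes Slc38a4 and Slc43a2 rose by 2.35 and 1.87. Among 315 solute carrier genes as a family, 66 were higher (21%) and 64 lower (20.3%), not far from the shares over all genes, with a median of 0.06. Of 24 genes of glucose handling, 7 were higher (29.2%) and 3 lower (12.5%), with hexokinase 2 (Hk2) at 0.80.

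Of 30 genes listed as insulin, FoxO and mTOR brakes, 17 were higher (56.7%) and 2 lower (6.67%), with a median of 0.43. Over all genes 15.2% were higher and 21.6% lower. Without dexamethasone array 50, 14 were higher, and 1 was lower without saline array 36 or dexamethasone array 49 or 51. Ddit4, an mTORC1 inhibitor also known as REDD1, stood at 5.61, 6.2, 5.55 and 5.31 on the dexamethasone arrays, against 2.85, 3.56, 3.66 and 3.96 on the saline arrays. Its saline arrays spread by more than 1 unit, and it still rose by 2.16 (adjusted p = 2.39e-07). The stress-induced mTORC1 inhibitor gene Sesn1 rose by 1.61, the transcription factor gene Foxo1 by 0.90 and Tbc1d4, a Rab GTPase-activating protein downstream of AKT, by 1.67. Igf1r, the receptor gene of IGF1 and not itself a brake, rose by 1.06.

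Genes of cell death and growth split within their families. Bcl2l1, the antiapoptotic protein BCL-XL, stood at 3.27, 3.24, 3.41 and 3.35 on the dexamethasone arrays, against 0.86, 1.13, 1.23 and 1.0 on the saline arrays, a rise of 2.26 (adjusted p = 1.82e-13), with its other probes at 1.84 and 1.61. It rose beside the proapoptotic Pmaip1 and the death receptor gene Fas (1.07), while the proapoptotic genes Bid and Bax fell by 0.99 and 0.51 and the inflammatory caspase gene Casp1 by 0.74. Of 27 genes of this list 6 were higher (22.2%, against 15.2% of all genes) and 10 lower (37%, against 21.6%), or 6 lower without dexamethasone array 52. The survival gene Mcl1 was at 0.11 (adjusted p = 0.215). The proto-oncogenes Mycn and Myc fell by 1.5 and 0.76, and the cell cycle inhibitor gene Cdkn2b by 1.27, opposite to Cdkn1a. Of 28 cell cycle genes 3 were higher and 5 lower, near or below the background shares, and without saline array 36 the count of higher genes was 1.

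Clock genes were higher in 12 of 18 cases (66.7%, against 15.2% of all genes) and lower in 2, with a median of 0.37. Leaving out any single array gave 10 or 11 higher, and 4 were lower without saline array 36. The repressor genes Per1, Per2 and Cry2 rose by 0.85, 0.97 and 0.74, and Ciart, another repressor, by 1.77. Per1 stood at 2.67, 2.8, 3.0 and 2.82 on the dexamethasone arrays, against 1.53, 1.67, 2.38 and 2.34 on the saline arrays, with saline arrays in 2 pairs and no overlap. The PAR bZIP genes parted, Tef rising by 1.13 and Dbp falling by 0.94 (adjusted p = 2.9e-05, 3 saline arrays with a value).

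Genes of epithelial sodium, chloride and water transport moved in both directions. Of 20 genes, 7 were higher (35%) and 6 lower (30%), with a median of 0.17, against 15.2% and 21.6% over all genes. Atp1b1, the beta subunit of the sodium pump, stood at 4.56, 4.68, 4.87 and 4.71 on the dexamethasone arrays, against 3.48, 3.43, 3.56 and 3.3 on the saline arrays, a rise of 1.26. Nedd4l, a ubiquitin ligase that removes the epithelial sodium channel and that Sgk1 is known to inhibit, rose by 1.13, whereas the channel subunit gene Scnn1a was at 0.22 (adjusted p = 0.11, or 0.00263 with slide as a block). The chloride channel gene Cftr fell by 0.92 and the anion exchanger gene Slc26a4, pendrin, by 2.99, with -3.85, -3.06, -3.47 and -3.5 on the dexamethasone arrays, against -0.33, -0.18, -1.57 and 0.17 on the saline arrays. Of 68 potassium channel genes tested, 11 were higher and 12 lower with a median of 0.04, so Kcnt1, Kcnab1, Kcnv2 and Kcnip3 (2.17) did not stand for the family.

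WNT signalling genes included some of the largest falls. Wnt7a, a ligand made by lung epithelium, stood at -4.1, -3.51, -4.44 and -4.0 on the dexamethasone arrays, against -0.47, -0.45, -0.68 and -0.71 on the saline arrays. The groups did not overlap, and the change was -3.43, or 10.8-fold (adjusted p = 1.57e-10). Wnt3a fell by 2.61 and Wnt2, a ligand of lung mesenchyme, by 2.09, the receptor genes Fzd2 and Lgr5 by 1.76 and 2.0, and the WNT-induced genes Ccn4 and Ccn5, also called Wisp1 and Wisp2, by 3.01 and 3.19. Ccn5 stood at -1.5, -0.41, -1.44 and -1.38 on the dexamethasone arrays, against 2.11, 2.13, 1.86 and 1.91 on the saline arrays, with dexamethasone array 50 above the rest of its group and still below all saline arrays. The receptor genes Fzd9 and Fzd4 rose by 2.49 and 1.19. Over 42 WNT ligands, receptors and inhibitors, 14 were lower (33.3%) and 3 higher (7.14%), against 21.6% and 15.2% of all genes. The median was 0.01, so the change lay in a minority of members, and without saline array 34 the count of higher genes was 5.

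Growth factors, endothelial receptors and receptors of vascular tone were more often lower than higher. Over all genes 21.6% were lower and 15.2% higher. Of 29 growth factors of vessel and lung, 15 were lower (51.7%) and 5 higher (17.2%), with a median of -0.48. Among them were Fgf18 (-1.52), the macrophage growth factor gene Csf1 (-1.03) and, higher, Ccn2 (0.88). Of 27 endothelial markers, 15 were lower (55.6%) and 5 higher (18.5%), with a median of -0.35. Kdr, the main receptor of VEGF, stood at 2.07, 1.73, 2.23 and 2.21 on the dexamethasone arrays, against 3.36, 3.41, 3.55 and 3.29 on the saline arrays. The apelin receptor gene Aplnr stood at -1.12, -2.11, -1.28 and -1.82 on the dexamethasone arrays, against 0.94, 1.27, 1.14 and 0.64 on the saline arrays. They fell by 1.34 and 2.58 without overlap, and Tek and the tight junction gene Cldn5 by 0.90 and 0.91. The second VEGF receptor gene Flt1 and the phosphatase gene Ptprb rose by 0.55 and 0.66, so endothelial genes did not move as a block. Pcdh12, an endothelial protocadherin, had one of the largest falls, with -0.58, -1.03, -0.60 and -0.92 on the dexamethasone arrays, against 2.33, 2.44, 2.12 and 2.19 on the saline arrays. Fewer cells of a type and less RNA per cell cannot be told apart in whole lung RNA, and this holds for every cell type marker below.

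Of 32 receptors that set airway and vessel tone, 13 were lower (40.6%) and 6 higher (18.8%), against 21.6% and 15.2% of all genes (median -0.36). The prostacyclin receptor gene Ptgir, the thromboxane receptor gene Tbxa2r, the leukotriene receptor gene Cysltr1 and the beta-1 adrenergic receptor gene Adrb1 fell by 1.87, 1.69, 1.74 and 1.26, of which Ptgir did not pass by the mean of its probes. The adenosine and angiotensin receptor genes Adora1 and Agtr1a rose by 1.72 and 1.28. On the synthetic side, the prostaglandin E synthase gene Ptges fell by 1.73 (adjusted p = 6.44e-10), and Hpgd, the enzyme that inactivates prostaglandins, rose by 1.09 (adjusted p = 3e-12). Hpgd stood at 5.8, 5.94, 5.88 and 5.94 on the dexamethasone arrays, against 4.92, 4.75, 4.82 and 4.73 on the saline arrays, tight in both groups. In matrix, the macrophage elastase gene Mmp12 fell by 2.69, with 2 of 4 dexamethasone arrays well above background, while the elastin gene Eln and the basement membrane collagen gene Col4a1 rose by 1.18 and 1.13. The guidance genes Plxna2 and Sema7a rose by 2.16 and 1.96 in a family of 29 with 7 higher (24.1%) and 12 lower (41.4%). The activin antagonist Fst rose by 1.57.

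By list median, B cell and NK cell markers had the largest falls of the lists tested. Of 20 B cell markers, 17 were lower (85%, against 21.6% of all genes), each by at least 2-fold (3.96% of all genes). The 1 higher was the complement receptor gene Cr2, which was named after its value was seen and was at -1.25 when its probes were averaged. The list's median was -2.42. Ms4a1, which encodes the B cell antigen CD20, stood at -3.32, -2.17, -2.88 and -3.04 on the dexamethasone arrays, against 0.20, 0.87, 0.46 and 0.86 on the saline arrays. Dexamethasone array 50 was the highest of its group for this gene and still lay below every saline array. The change was -3.45 (adjusted p = 1.09e-06). The receptor signalling genes Cd79b and Cd22 fell by 2.14 and 1.76, the chemokine receptor gene Cxcr5 and the BAFF receptor gene Tnfrsf13c by 3.11 and 3.13, the scaffold gene Bank1 by 3.36 and the IgM receptor gene Fcmr by 2.94. Blk, a B cell kinase, was at least 5.66-fold lower, since it was not well above background on any dexamethasone array. The transcription factor gene Ebf1, which lung stroma also expresses, was at -0.05 (adjusted p = 0.84). By array, the list's median relative to the saline mean was -2.71, -1.85, -2.41 and -2.60 on dexamethasone arrays and -0.39, 0.25, -0.02 and 0.17 on saline arrays. Leaving out any 1 array kept the count at 17.

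T cell markers were lower in 17 of 23 cases (73.9%, against 21.6% of all genes) and higher in 0 by limma's adjusted p, with a median of -0.93. At an unadjusted p under 0.05, 0 T cell, NK cell, dendritic cell, adhesion, interferon-stimulated or class II genes were higher. Cd8a, the coreceptor of cytotoxic T cells, stood at -3.17, -2.74, -3.66 and -3.79 on the dexamethasone arrays, against -1.78, -1.26, -1.57 and -0.76 on the saline arrays. The receptor chain gene Cd3d stood at -1.21, -0.32, -1.01 and -1.22 on the dexamethasone arrays, against 0.19, 0.90, 0.30 and 1.15 on the saline arrays, and for both genes the groups did not overlap. The kinase gene Lck fell by 1.72, and the interleukin 7 receptor gene Il7r, itself known as glucocorticoid-inducible, was at -0.10 (adjusted p = 0.713). All 18 NK cell markers were lower, with a median of -1.67. Ncr1, the activating receptor NKp46, stood at -4.85, -6.15, -7.36 and -7.0 on the dexamethasone arrays, against -3.06, -2.81, -3.32 and -3.2 on the saline arrays. The chemokine gene Xcl1, with the largest fall among the named genes, stood at -6.46, -7.05, -7.56 and -6.72 on the dexamethasone arrays, against -3.5, -3.33, -2.65 and -3.56 on the saline arrays. Of the dexamethasone arrays, 2 were well above background for Ncr1 and 1 for Xcl1. The cytotoxic granule genes Prf1 and Nkg7 fell by 1.69 and 1.68. Dexamethasone array 49 was the mildest for these genes, with an NK list median of -0.61 relative to saline, against -1.37, -2.36 and -2.09 on arrays 50, 51 and 52; without array 49 the median was -2.03 with 18 lower, and without single other arrays the count was 16 to 18.

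**Figure D3:**
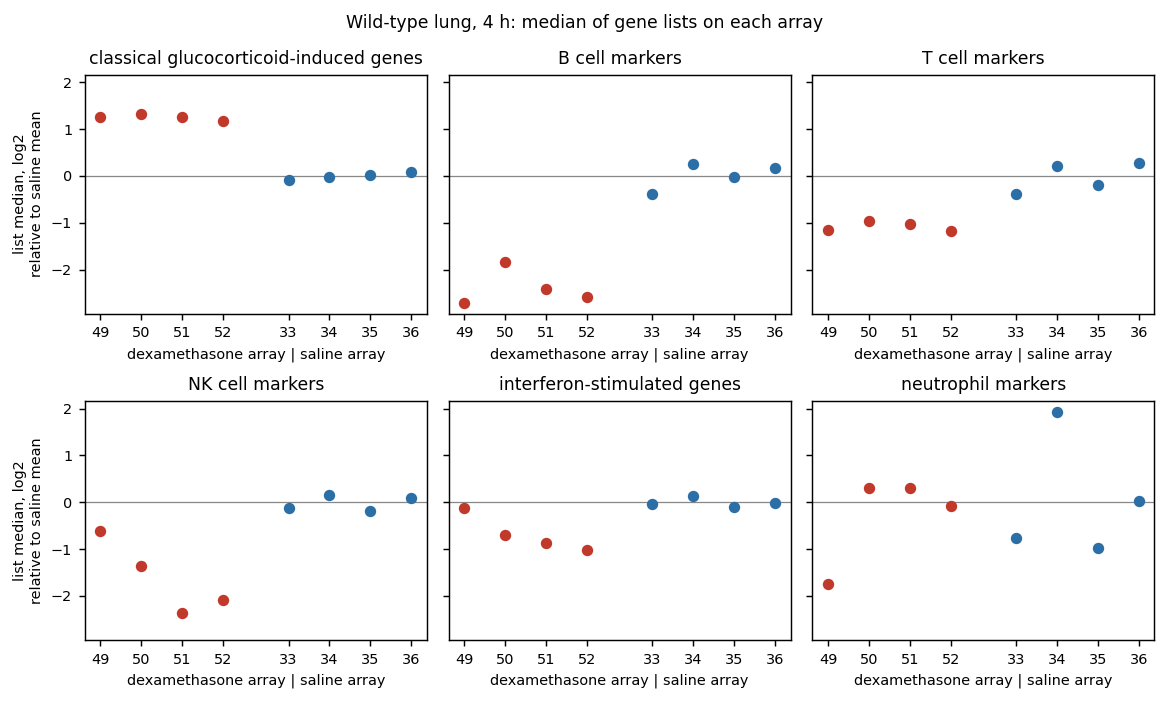
Median of 6 gene lists on each array, as log2 relative to the mean of the 4 saline arrays; in each panel the 4 dexamethasone arrays stand left of the 4 saline arrays, labelled by replicate. B, T and NK cell markers separated the groups, array 49 lay closest to saline for interferon-stimulated and NK cell genes, and saline array 34 stood apart at 1.93 for neutrophil markers.

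Myeloid lists differed in direction, where 15.2% of all genes were higher and 21.6% lower. Of 16 monocyte markers 9 were lower (56.2%) and 2 higher (12.5%). Among the falls were those of patrolling and inflammatory monocyte genes, Adgre4 (-3.44), Treml4 (-2.65), the fractalkine receptor gene Cx3cr1 (-2.58) and the chemokine receptor gene Ccr2 (-2.39). A dim second probe of Cx3cr1 was at -0.655 and did not pass (limma's adjusted p = 0.398). Treml4 stood at -2.84, -2.44, -2.31 and -2.75 on the dexamethasone arrays, against -0.10, 0.18, 0.08 and 0.09 on the saline arrays. Ly6c2, a surface antigen of inflammatory monocytes, rose by 0.48, with 3 saline arrays holding a value, and the higher monocyte markers were 1 without saline array 33 or dexamethasone array 50. Of 15 dendritic cell markers 10 were lower (66.7%) and 0 higher, among them Cd209a (-2.35, well above background on 3 dexamethasone arrays) and the transcription factor gene Irf8 (-1.57). Of 13 alveolar macrophage markers 4 were higher (30.8%) and 1 lower (7.69%), with the fatty acid binding protein gene Fabp4, which endothelium also expresses, at 1.21. Without dexamethasone array 52, 2 macrophage markers were higher, and none was lower without saline array 33 or 36 or dexamethasone array 49 or 51. Neutrophil markers gave 1 higher (5.56%) and 3 lower (16.7%) of 18, both below the shares over all genes, with a median of -0.20. Their level differed within groups, with the list median at 1.93 on saline array 34 and -0.98 to 0.02 on the other saline arrays, and at -1.74 on dexamethasone array 49 and -0.07 to 0.30 on its other arrays. Without saline array 34 the neutrophil median was 0.29, without dexamethasone array 49 it was 0.23, and 2 markers were lower in either case. Without saline array 33, 5 were lower.

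Chemokines and cytokines were lower in many members. Of 53 chemokines and their receptors 30 were lower (56.6%) and 4 higher (7.55%), against 21.6% and 15.2% of all genes, with a median of -0.66. Without saline array 34 or dexamethasone array 49 or 51, 2 were higher. The macrophage chemokine gene Ccl4 stood at -4.09, -4.6, -4.92 and -5.3 on the dexamethasone arrays, against -2.1, -1.88, -2.39 and -2.26 on the saline arrays. The interferon-induced Cxcl10 stood at -4.38, -4.81, -5.2 and -3.93 on the dexamethasone arrays, against -2.25, -1.98, -2.56 and -2.12 on the saline arrays. They fell by 2.57 and 2.35. Of 31 TNF ligands and receptors 16 were lower (51.6%) and 1 higher (3.23%), with lymphotoxin beta (Ltb) at -2.45, the death ligand TRAIL (Tnfsf10) at -2.73 and, as the 1 higher member, the death receptor gene Tnfrsf21 at 1.23. Of 61 interleukins and their receptors 21 were lower (34.4%) and 4 higher (6.56%). Il6 was at least 2.32-fold lower, and Il1b fell by 2.3 (adjusted p = 0.00528), with -3.19, -1.97, -1.36 and -2.55 on the dexamethasone arrays, against -0.80, 2.33, -0.94 and -0.46 on the saline arrays, where saline array 34 stood apart as it did for the neutrophil list. In a fit of the 8 arrays alone the adjusted p of Il1b was 0.0554. Il6ra, the interleukin 6 receptor gene, rose by 1.19, and Il5ra, the eosinophil growth factor receptor, was at least 3.42-fold lower. Of 20 leukocyte adhesion molecules 15 were lower (75%, against 21.6% of all genes) and 0 higher, with a median of -0.60. Among them were the integrin chain gene Itga4 (-1.02) and Icam1 (-0.89), which endothelium also makes. Without saline array 34, 10 adhesion molecules were lower (median -0.46), and without dexamethasone array 49, 11 were (median -0.505).

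Interferon-stimulated genes were lower in 23 of 30 cases (76.7%, against 21.6% of all genes) and higher in 0, with a median of -0.69. Ifit3 stood at 1.19, 0.77, 0.49 and 0.63 on the dexamethasone arrays, against 2.33, 2.3, 2.36 and 2.4 on the saline arrays, without overlap, and fell by 1.58 (adjusted p = 4.18e-11), and the interferon regulatory factor gene Irf7 fell by 0.96. MHC class II presentation genes were lower in 8 of 10 cases (80%) and higher in 0. For 3 of the 10 all dexamethasone arrays lay below all saline arrays, not far from the 19.7% of all genes for which they did. The class II transactivator gene Ciita stood at 0.23, -1.66, -2.21 and -2.21 on the dexamethasone arrays, against 0.28, 0.98, 0.07 and 0.65 on the saline arrays, where array 49 lay within the saline range and the other 3 dexamethasone arrays below it. The immunoproteasome genes Psmb8 and Psmb9, which interferon induces, showed the same pattern, with Psmb9 at 3.34, 2.23, 1.92 and 1.84 on the dexamethasone arrays, against 3.24, 3.63, 3.23 and 3.57 on the saline arrays; they fell by 0.86 and 1.09, and Psmb10 by 0.85. Among all 42 proteasome genes 6 were lower (14.3%) and 4 higher (9.52%, against 15.2% of all genes), and 10 were lower without dexamethasone array 50. Relative to saline, the interferon list's median was -0.13 on array 49 and -0.70, -0.88 and -1.02 on arrays 50, 51 and 52. Without array 49 it was -0.94 with 26 genes lower, and the class II median was -0.97 with 8 lower. Without dexamethasone array 52, 18 interferon-stimulated genes were lower, with a median of -0.57. Without saline array 34 or dexamethasone array 50 or 51, 19 were lower. The class II genes that were lower numbered 6 without saline array 34 or 36 or dexamethasone array 51 or 52.

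**Figure D4:**
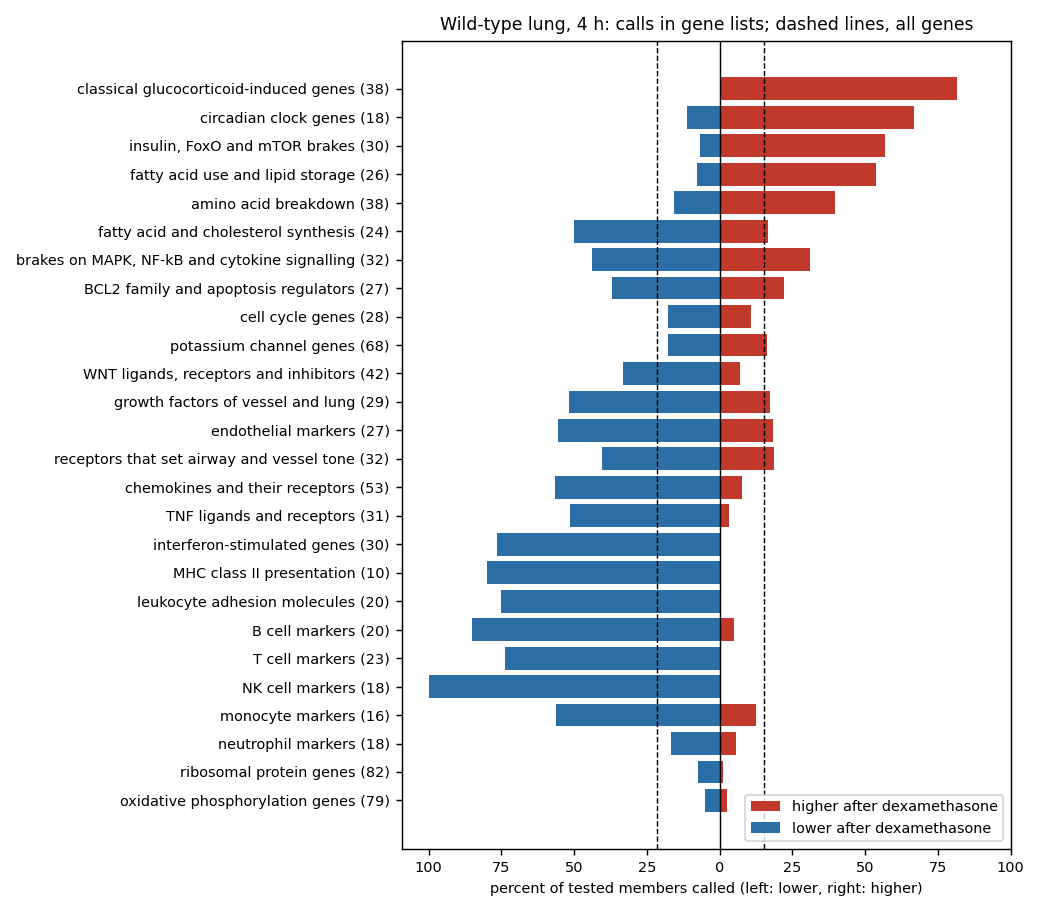
Percent of the tested members of 26 gene lists that were higher (right, warm colour) or lower (left, cool colour) after dexamethasone at an adjusted p under 0.05, with the number tested beside each name. Dashed lines mark the shares over all genes, 15.2% higher and 21.6% lower; classical glucocorticoid-induced genes lead the rises and NK cell, B cell and class II genes the falls.

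Ribosomal protein and oxidative phosphorylation genes moved little, while lists of structural lung cells were mixed. Of 18 fibroblast and pericyte markers 8 were lower and 2 higher, and of 13 alveolar type 2 markers 5 were lower and 1 higher. Over all genes 15.2% were higher and 21.6% lower. Of 82 ribosomal protein genes 1 was higher and 6 lower, and of 79 oxidative phosphorylation genes 2 were higher and 4 lower, with medians of -0.03 and -0.06. Without dexamethasone array 50, 12 ribosomal genes were lower, and without dexamethasone array 52 or saline array 36, 3 were. The counts of higher ribosomal genes were 3 without saline array 34 and 2 without dexamethasone array 49. The 2 higher phosphorylation genes became 1 without any of saline arrays 33, 34 and 35 and dexamethasone arrays 50, 51 and 52. Club and ciliated cell markers gave 2 higher and 1 lower of 17, and smooth muscle markers 3 and 0 of 11. Without saline array 34 or dexamethasone array 49, 4 club and ciliated markers were higher, and without any 1 of saline arrays 35 and 36 and dexamethasone arrays 50, 51 and 52, 1 was. Lower were 2 without saline array 34 or dexamethasone array 50 or 51, and none without dexamethasone array 49. Of 16 genes of surfactant and its lipids 2 were higher (1 without saline array 33 or 35 or dexamethasone array 50) and 4 lower, with Sftpc at 0.23 (adjusted p = 0.189, or 0.00336 with slide as a block) and the lipid transporter gene Abca3 at -0.39 (adjusted p = 0.000647). Among alveolar type 1 markers 4 were higher and 2 lower of 11, of which Aqp5, the water channel, fell by 0.87 and Pdpn rose by 0.82. The 4 higher type 1 markers became 1 without saline array 36 or dexamethasone array 51, and 2 without saline array 35 or dexamethasone array 50 or 52. Erythroid genes gave 0 of 9 in either direction by limma's adjusted p (1 higher and 0 lower at an unadjusted p under 0.05), and genes of heart muscle, skeletal muscle and a mixed list of thymus, thyroid, esophagus and liver gave 1 call each among 12, 12 and 9. The skeletal muscle call was lost without any of saline arrays 34 and 35 and dexamethasone arrays 50, 51 and 52.

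The wild-type response at 8 h was compared by the difference of the 2 effects (8 h minus 4 h). It passed for 947 genes (6.17%), 431 with a positive difference (2.81%) and 516 with a negative one (3.36%). Without dexamethasone array 55 of the 8 h group the count was 619. Of the 38 classical glucocorticoid-induced genes, 19 had a negative difference and 0 a positive one by limma's adjusted p (27 and 1 at an unadjusted p under 0.05). At 8 h, 18 of them were higher and 1 lower, where 9.47% of all genes were higher and 14.5% lower, and their median was 0.49. Fam107a was up by 4.17 at 4 h and by 1.89 at 8 h (difference -2.27, adjusted p = 1.13e-06). Fam160a1, Mcf2l, Coro2a and the zinc finger gene Zbtb8b were up by 1.31, 1.62, 1.51 and 2.82 at 4 h, against -0.02, 0.30, 0.21 and -0.07 at 8 h. Sh3rf2, a RING domain protein, was at -2.36 at 4 h and -0.29 at 8 h (difference 2.07, adjusted p = 5.16e-08), with -2.2, -2.1, -2.06 and -1.84 on the dexamethasone arrays, against 0.36, 0.34, 0.27 and 0.29 on the saline arrays at 4 h. Afap1l2 was likewise at -1.47 and 0.05. Among the genes described above, Bcl2l1 was at 0.75 at 8 h (difference -1.51), Kdr was at -0.05 (difference 1.29, adjusted p = 2.02e-05), Wnt7a at -0.74 (difference 2.69) and Fzd4 at 0.01 (difference -1.18).

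Lymphocyte markers were lower at both times. At 8 h, 17 of 20 B cell markers, 18 of 23 T cell markers and 18 of 18 NK cell markers were lower, with medians of -2.40, -1.20 and -2.10. Over all genes 14.5% were lower at 8 h. The difference between 8 h and 4 h passed for 0 genes of each list by limma's adjusted p. At an unadjusted p under 0.05 it was negative for 0 B cell, 1 T cell and 9 NK cell markers and positive for 0. A difference that does not pass does not show equal effects. Interferon-stimulated genes were lower in 25 of 30 cases at 8 h. The dexamethasone effects share no arrays between the times.

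**Figure D5:**
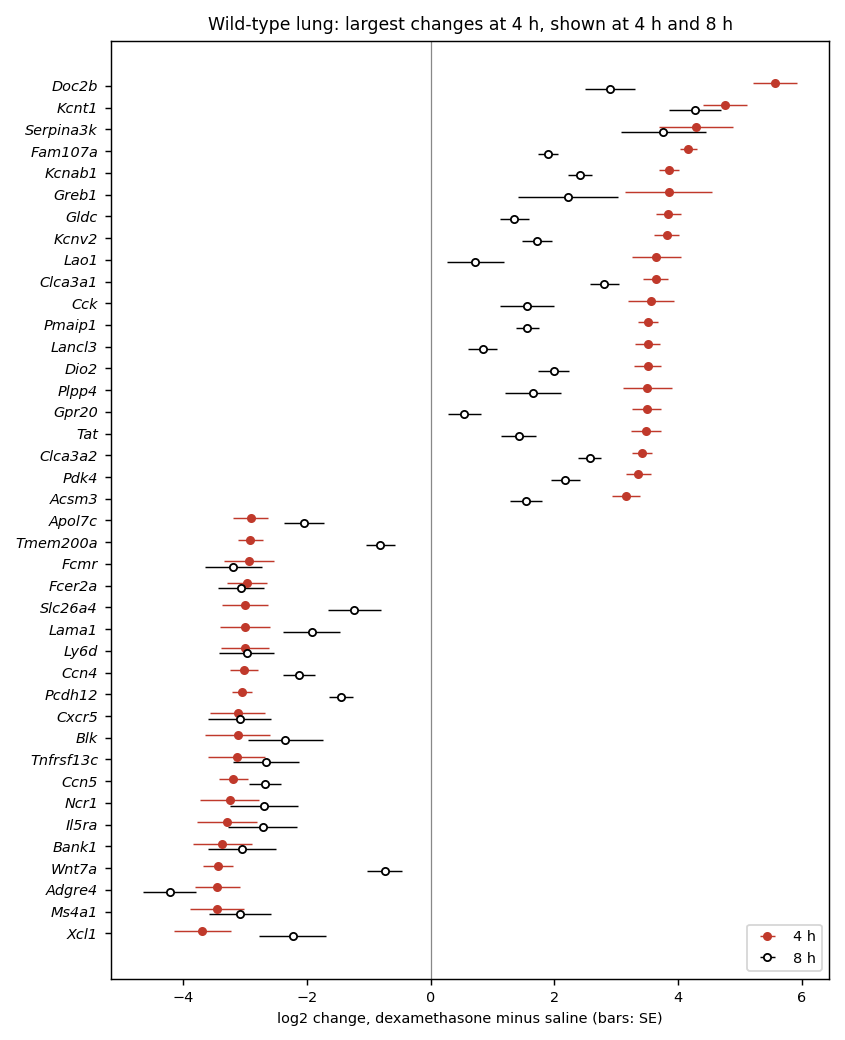
Log2 change by dexamethasone in wild-type lung at 4 h (filled points) and 8 h (open points) with SE, for the 20 largest rises and 20 largest falls at 4 h; each time has its own saline arrays. The genes were picked by their 4 h values, so a smaller value at 8 h is in part built into the choice.

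In mice without Klf15, dexamethasone at 4 h gave a median of 1.58 for the classical genes, 33 of 38 higher, and -1.71 for B cell markers, 17 of 20 lower, where 23.9% of all genes were higher and 18.5% lower. Klf15 stood at 1.07, 1.23, 1.37 and 1.27 on the knockout dexamethasone arrays, against -0.87, -0.88 and -0.27 on the knockout saline arrays, all below every wild-type array at 4 h, and the sources used here do not place its probe relative to the deleted part. The effect differed between knockout and wild type for 2201 genes (14.3%), a count that was 1104 under quantile normalization, 575 with normexp background correction, 530 by the authors' deposited table, and 1027 to 2924 when single arrays were left out. It was 1098 without wild-type saline array 36, 1334 without wild-type dexamethasone array 52, 1027 without knockout saline array 43, and 1255 and 1112 without knockout dexamethasone arrays 57 and 58. The gap between bright and dim genes was 7.45 to 8.16 on the 4 knockout dexamethasone arrays and 7.40 to 7.74 on the 3 knockout saline arrays, and its part in that count was not tested. Fah, the last enzyme of tyrosine breakdown, was at -0.46 in the knockout and 0.29 in wild type (difference -0.75, adjusted p = 0.00141), and Peli1, a ubiquitin ligase, at 1.03 and 0.36 (difference 0.67, adjusted p = 0.00141). For Fam107a, Pdk4, Tat and Fkbp5 the differences did not pass (adjusted p = 0.685, 0.766, 0.211 and 0.265).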

How the data were processed

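Lung RNA of each mouse sample was labelled with 1 dye and hybridised to an Agilent array. The deposited scanner files hold intensity values per spot (processed signal, already background-subtracted), written by Feature Extraction. Its version is 10.7.3.1 per the file headers and 10.6 per the submitters' processing notes. The authors' deposited series table holds log2 values of the same arrays, with medians near 8.29; how they were scaled and centred is not given in the sources used, and the table served as an alternative. Control spots and outlier flags were left out. The log2 intensity minus each array's 75th percentile was fitted in R 4.3.3 with limma 3.58.1 (lmFit and eBayes), with 8 group means over all 29 arrays, which gives every group a common residual variance. A probe had to be well above background on 3 or more arrays of 1 group, which kept 33931 of 41174. Of all probes 24844 were matched to 1 gene through RefSeq accessions, 0 to several and 16330 to none, and the brightest kept probe stood for its gene. The 15350 p-values were adjusted by Benjamini-Hochberg. The fit was tested on simulated data in which 100 genes were changed by 0.5 and 100 by 1 log2 unit. These were far fewer changed genes than were called here. The fit recovered 50% and 80% of the changed genes, with 3 false calls, so a gene that did not pass may still have changed. The simulated noise was drawn independently for each array, without slide effects. In these data the random block fit gave a correlation of 0.405 within slides, so the 3 false calls set no rate for them. Of 2259 called genes with several probes, 1863 (82.5%) had all probes of 1 sign. Named were Klf15, Nr3c1, the 20 largest rises and falls without overlap between groups, up to 8 members of each list with the lowest p and the brightest uncalled member, all members of lists of up to 12, and the 10 genes with the lowest p in each difference; genes shown for their promoter and others said to be chosen later fall outside this rule, and some genes it names are not reported here. The members and lists were chosen with earlier results of these data known. Alternatives were the normalization, the background correction, the filter, the probe rule, the variance model, the arrays fitted, the slide as a block, the deposited table and leaving out arrays; the list counts without single arrays and the left-out arrays of the other groups were added after seeing the data. No array pair was identical. Nothing states that the samples were never pooled, so p-values measure the spread between these samples.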

Additional observations from a re-analysis of the deposited data

Results flagged for a closer look

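Among the genes described, 1 of 4 arrays stood apart from the rest of its group in 19 of 349 groups of 4 arrays with all values, where chance flags about 1 in 20 groups. Of the dexamethasone arrays, array 50 stood apart for Ccn5 (-0.41, high), Tef (4.54, low) and Tinagl1 (3.45, high), array 52 for Blk (-8.63, low, not well above background), Icam1 (0.94, high) and Adipoq (-3.45, low), and array 49 for Wnt2 (-0.83, low). Saline array 34 was high for Il1b (2.33), Ccr2 (0.35), Bid (-0.084) and the transporter gene Slc43a2 (-1.66). Saline array 36 was high for Greb1 (-4.43), Ccn2 (4.90), Flt1 (4.50) and Sesn1 (3.01). Saline array 33 was low for Adgre4 (-3.31) and high for Mmp12 (-4.14), and saline array 35 was low for Csf1 (1.52) and high for Tbxa2r (-0.41). In each of these genes except Adipoq the 4 dexamethasone arrays still lay on one side of the 4 saline arrays.

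By limma's test of the difference, the effect of dexamethasone in wild-type lung differed between 8 h and 4 h for 22 genes. These were among the genes described as largest, as most different or as always reported. Those described as most different were picked by this same test, so they had to pass. The largest were picked by their 4 h values, so a smaller effect at 8 h is in part built into the choice. Negative differences (8 h minus 4 h) were those of Gpr20 (-2.94), Zbtb8b (-2.89), Doc2b (-2.66), Gldc (-2.49), Fam107a (-2.27), Kcnv2 (-2.10), Tat (-2.06), Cck (-2.0), Pmaip1 (-1.96), Dio2 (-1.52), Kcnab1 (-1.45), Fam160a1 (-1.33), Mcf2l (-1.32), Coro2a (-1.29), Pdk4 (-1.18), Klf15 (-1.16) and Clca3a2 (-0.84), all of which were higher at 4 h. Positive differences were those of Wnt7a (2.69), Sh3rf2 (2.07), Pcdh12 (1.6), Afap1l2 (1.53) and Nr3c1 (0.54), all of which were lower at 4 h. Doc2b, Gpr20, Kcnv2 and Cck were not well above background on any 4 h saline array, so their fitted differences are no bounds. Klf15 stood at 3.91, 3.40 and 3.76 on the 8 h dexamethasone arrays, against 2.98, 2.69 and 3.02 on the 8 h saline arrays. The former lay below every 4 h dexamethasone array and the latter above every 4 h saline array, so both groups shifted. Between knockout and wild type at 4 h, the effect differed for Fah (-0.75), Peli1 (0.67) and Nr3c1 (0.45). Of these, Fah and Peli1 were picked by this same difference.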

How the results depend on the processing

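No paired analysis was possible because the dexamethasone and saline groups share no replicate numbers. Slide was run as a block instead, which gave 3158 genes higher and 3400 lower as a fixed block and 2903 and 3606 as a random one. Median scaling gave 1486 genes higher, against 2328, and normexp background correction with quantile normalization left 269 and 335 genes at least 2-fold higher and lower, against 458 and 608. Without single arrays the counts ranged from 2042 to 2264 higher, 2783 to 3453 lower, 396 to 514 at least 2-fold higher and 557 to 663 at least 2-fold lower. The count for 8 h minus 4 h, 947, was 549 by median scaling, 610 with the 14 wild-type arrays alone, and 1525 and 1714 with slide as a fixed or random block, and it ranged from 619 to 1117 without single arrays. The count for knockout minus wild type, 2201, was 1104 by quantile normalization, 1344 by median scaling, 575 by normexp, 1394 by the mean of probes and 530 by the deposited table, and it ranged from 1027 to 2924 without single arrays. Its share of positive differences was 92.3% by median scaling and 52.3% by the deposited table. The causes were not tested. Of 165 called genes named, 158 kept direction and call under all alternatives run for them. Cr2 was at -1.25 by the mean of its probes, Ptgir and Abca3 did not pass by that mean, Fah and Cidec did not pass by median scaling, Thrsp did not pass under 6 settings, that one included, or without any 1 of 5 arrays, and Il1b did not pass in the fit of 8 arrays. Genes that newly passed were Anxa1 by normexp and the deposited table, Fasn, Mcl1, Scnn1a and Sftpc with slide as a block, Scnn1a also by the mean of probes and without dexamethasone array 49, and Cd36 without saline array 35. Signal over background limits the dim genes.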
